A study of Mus musculus with 38 samples.

Results

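A set of 10 genes that are commonly read as the output and negative feedback of ERK signalling, Spry1, Spry2, Spry4, Spred1, Dusp4, Dusp6, Dusp9, Etv4, Etv5 and Egr1, was followed while mouse embryonic stem cells (mESCs) left a medium that holds a MEK inhibitor. These 10 genes were picked by name from the 23481 genes of the bulk table. No rule used their values, but earlier results of these data were known when they were chosen. Counts of members beside shares of all genes are thus a description only. All 10 were listed in the bulk, SCRB-seq and SMART-seq2 tables. The study exposed E14 mESCs, a feeder-free mouse line, to all-trans retinoic acid (RA) and followed the split of the culture into ectoderm-like and extraembryonic endoderm (XEN)-like cells in 38 samples, which comprise 25 bulk libraries, 9 SCRB-seq plates and 4 sets of SMART-seq2 cells.

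At 0 h the cells were kept in 2i/L, which holds 1 µM of the MEK inhibitor PD0325901, 3 µM of the GSK3 inhibitor CHIR99021 and 1000 U/ml LIF. All later time points up to 96 h were in N2B27 medium with 0.25 µM RA and without both inhibitors, LIF and the added insulin of 2i/L. Removal of the MEK inhibitor, removal of the other factors and addition of RA therefore cannot be told apart in these samples. Further bulk libraries are of RA-treated cells sorted by antibodies to PDGFRA and CD24. At 48 h PDGFRA-negative cells were split into quartiles of CD24, and at 72 h into terciles, beside the PDGFRA-positive cells of that day. At 96 h ectoderm-like cells (with CD24, without PDGFRA) and XEN-like cells (with PDGFRA, without CD24) were taken, with 2 libraries each. The 2 long-term cultures were grown from such sorted cells in N2B27 with 20 ng/ml EGF and 10 ng/ml FGF2, the ectoderm-like cells to passage 5 and the XEN-like cells for 3 weeks as floating aggregates. The study describes the bulk libraries of mESCs and of the 2 cell types sorted at 96 h as biological replicates. Whether the bulk time course came from another differentiation than the SCRB-seq plates is not stated in the sources used here. The p-values of the time course thus measure the spread between these libraries, which may be technical in part.

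ERK is the last kinase of the RAF, MEK and ERK cascade downstream of FGF receptors, and a MEK inhibitor stops its activation. Active ERK switches on immediate early genes such as Egr1 and the ETS factors Etv4 and Etv5, and also the genes that dampen it: Sprouty (Spry) and Spred proteins act upstream of ERK at the level of RAS and RAF, and dual specificity phosphatases (Dusp) remove the activating phosphates from ERK itself. In mouse embryonic stem cells, ERK signalling driven by FGF4 promotes the exit from the pluripotent state, which is why the inhibitor holds the cells in it.

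Bulk libraries of the time course (11 in all) ranged from 1652482 to 2459424 unique molecular identifiers (UMIs, tags by which each captured RNA molecule is counted once), and all 25 bulk libraries from 1063809 to 2459424. The 9 SCRB-seq plates held 2448 wells with more than 2000 UMIs, between 137 and 335 per time point, with median totals of 3559.5 to 5069 UMIs, and their sums ran from 726759 to 2593394 UMIs. Values are UMIs scaled to the library total (CPM). Levels differed between the methods, as for Etv5 at 0 h, and were compared only within a method or in a fit with the method as a term. In the sorted libraries all 11 XEN markers were higher and all 11 ectoderm markers were lower in sorted XEN-like than in sorted ectoderm-like cells, Pdgfra and Cd24a, whose proteins were used for the sort, among them. The summed level of the XEN markers was 12069 and 6676 CPM in the XEN-like and 486.0 and 1781 CPM in the ectoderm-like libraries, so the second ectoderm-like library held more of them than the first. The 2 mESC libraries differed in several members, and their values are given apart. In bulk samples and sums of cells, fewer cells that express a gene and less RNA per cell cannot be told apart.

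Dusp6, Spry4 and Etv4 rose within 6 h of the medium change. Among the 9 members that could be tested (Spry1 was too low), these 3 rose and none fell, while 0.406% of the 12075 genes tested rose and 0.232% fell. Time points were tested against 0 h with edgeR's quasi-likelihood test over bulk libraries and SCRB-seq sums together, with the method as a term and Benjamini-Hochberg adjustment over all genes tested.

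Dusp6 (chr10:99263231-99267489, plus strand, GRCm38) encodes a cytoplasmic phosphatase specific for ERK. It stood at 18.4 and 7.40 CPM in the 2 mESC libraries. Bulk libraries after the switch held 56.2 CPM at 6 h (95% Poisson interval 46.4 to 67.5), 46.7 at 12 h, 74.7 at 24 h, 90.2 at 36 h, 78.5 at 48 h, 55.2 at 60 h, 47.4 at 72 h, 34.2 at 84 h and 25.6 at 96 h. SCRB-seq sums went from 10.4 CPM at 0 h to 76.9 at 6 h, 70.2 at 12 h, 75.5 at 24 h, 124.3 at 36 h, 85.1 at 48 h, 68.97 at 60 h, 73.8 at 72 h and 29.96 at 96 h. Every library between 6 h and 96 h was above every 0 h library of its method, and both methods had their highest value at 36 h. The fitted log2 fold change against 0 h was 2.39 ± 0.34 (SE) at 6 h (adjusted p = 0.00123) and 3.06 ± 0.33 at 36 h (adjusted p = 8.69e-07), and at 96 h it was 0.76 ± 0.37 and did not pass the test (adjusted p = 0.155).

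**Figure D1:**
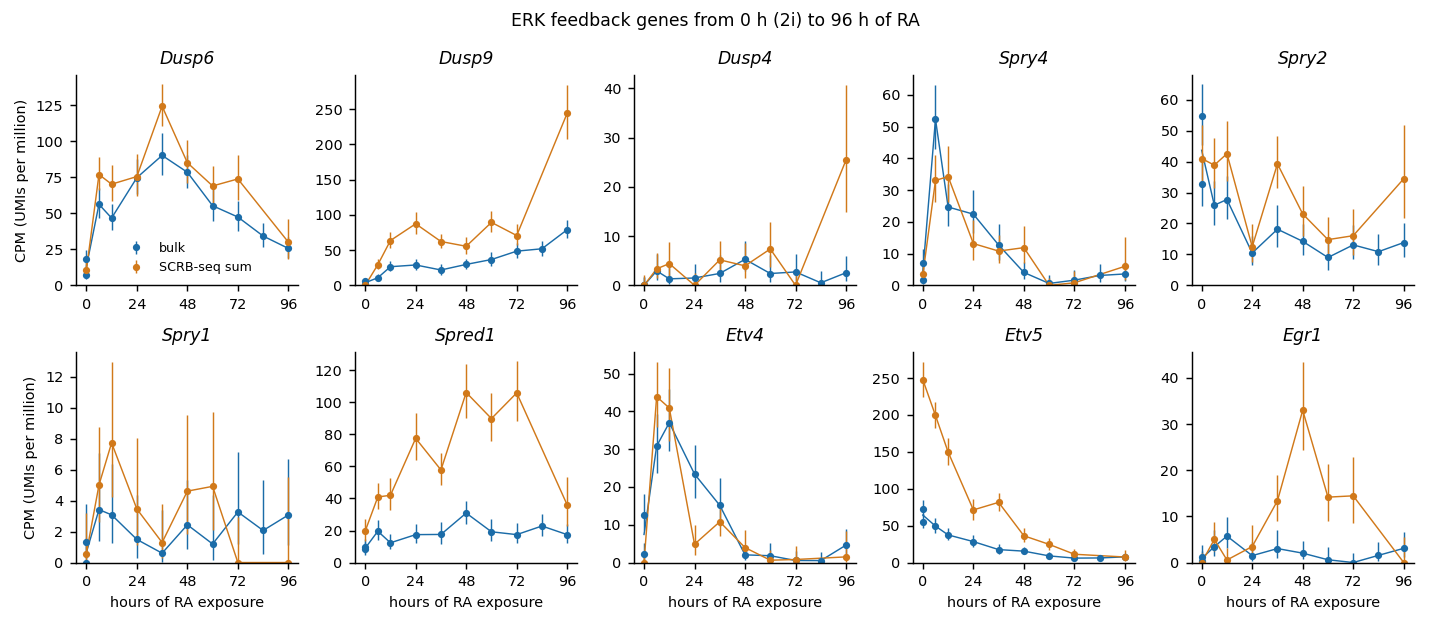
CPM (vertical axis, from 0) of the 10 genes against hours of RA exposure in bulk libraries (blue) and SCRB-seq sums (orange), with 95% Poisson intervals as bars and lines through the values (at 0 h, through the mean of the 2 mESC libraries). Dusp6 was highest at 36 h in both methods, Spry4 and Etv4 were highest at 6 h or 12 h, and Etv5 was highest at 0 h.

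Spry4 (chr18:38586247-38601415, minus strand), a Sprouty inhibitor of RAS signalling, had the sharpest course. It was at 7.00 and 1.74 CPM in the mESC libraries and at 52.3 CPM at 6 h, 24.7 at 12 h, 22.4 at 24 h, 12.7 at 36 h, 4.07 at 48 h, 0.601 at 60 h, 1.63 at 72 h, 3.11 at 84 h and 3.59 at 96 h. The SCRB-seq sums were 3.46 CPM at 0 h, 33.02 at 6 h, 34.3 at 12 h, 13.2 at 24 h, 10.8 at 36 h and 11.9 at 48 h, with 0 UMIs at 60 h. The log2 fold change was 3.38 ± 0.55 at 6 h (adjusted p = 0.00351), 2.84 ± 0.56 at 12 h (adjusted p = 0.00581) and 2.07 ± 0.57 at 24 h (adjusted p = 0.025), it did not pass the test at 36 h and 48 h, and at 60 h it was -3.69 ± 1.07 (adjusted p = 0.0173). At 60 h the value rested on 1 UMI in bulk and 0 in SCRB-seq, and the call was lost with DESeq2, without the first mESC library and without the SCRB-seq sample of 60 h.

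Etv4 (chr11:101769742-101785371, minus strand), an ETS factor of the PEA3 group, followed a like course. The mESC libraries held 12.7 and 2.18 CPM, and bulk values were 30.8 CPM at 6 h, 37.01 at 12 h, 23.4 at 24 h and 15.1 at 36 h, then between 0.518 and 4.61 CPM from 48 h on. In SCRB-seq it had 0 UMIs at 0 h, 105 UMIs (43.9 CPM) at 6 h, 74 UMIs (40.9 CPM) at 12 h and 7 UMIs (4.85 CPM) at 24 h. Within this method it was at least 25.3-fold higher at 6 h, with the 0 h plate set at 3 UMIs and the 6 h count taken without its counting error. The log2 fold change was 3.12 ± 0.71 both at 6 h (adjusted p = 0.0347) and at 12 h (adjusted p = 0.0162), and it did not pass the test from 24 h on. The first mESC library, at 12.7 CPM, lay close to the 15.1 CPM of 36 h and above all later bulk libraries.

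The calls at 6 h leaned on single libraries: without the bulk library of 6 h, 1 member (Dusp6) rose, and the call of Etv4 was also lost without the SCRB-seq sample of 6 h, that of 0 h or the second mESC library. Dusp6 was called at 6 h in every alternative run.

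Dusp9 (chrX:73639419-73643514, plus strand), an ERK-directed phosphatase linked to mESC self-renewal, was higher in both methods at 6 h, passed the test from 12 h on and was highest at 96 h. Bulk values were 6.12 and 1.31 CPM in mESCs, 10.8 at 6 h, 26.4 at 12 h, 28.9 at 24 h, 21.8 at 36 h, 29.7 at 48 h, 36.6 at 60 h, 48.5 at 72 h, 51.8 at 84 h and 78.9 at 96 h. The SCRB-seq plate of 0 h had 0 UMIs, and later sums held 29.3 CPM at 6 h, 63.6 at 12 h, 87.3 at 24 h, 62.2 at 36 h, 55.4 at 48 h, 89.3 at 60 h, 70.6 at 72 h and 244.2 at 96 h. With the 0 h plate set at 3 UMIs and the 6 h count taken without its counting error, it was at least 16.9-fold higher in SCRB-seq at 6 h. The fit did not call it at 6 h, while DESeq2, scaling by library totals alone and the fit without a filter did. All libraries from 6 h on were above all 0 h libraries of their method. The log2 fold change was 2.50 ± 0.62 at 6 h (adjusted p = 0.0619), 3.65 ± 0.59 at 12 h (adjusted p = 0.00119) and 5.04 ± 0.58 at 96 h (adjusted p = 4.39e-07).

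At 12 h 4 of the 9 members tested rose (Dusp6, Dusp9, Spry4 and Etv4), against 1.22% of all genes tested, and none fell, against 1.23% of all genes. In both directions together 0.638% of the genes passed at 6 h, 2.45% at 12 h, 6.7% at 24 h, 8.97% at 36 h, 14.5% at 48 h, 16.5% at 60 h, 19.2% at 72 h and 19.6% at 96 h. Without the SCRB-seq sample of 12 h, or that of 0 h, only Dusp6 and Dusp9 passed at 12 h. At 24 h Dusp6, Dusp9, Spry4 and Spred1 rose, against 3.34% of all genes, and Spry2 and Etv5 fell, against 3.36% of all genes. Without the SCRB-seq sample of 24 h, 2 of these 6 (Dusp6 and Dusp9) passed the test.

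Spred1 (chr2:117121374-117182279, plus strand), a membrane-bound inhibitor of RAS and RAF signalling, changed less. It was at 8.31 and 9.58 CPM in mESCs, 19.6 at 6 h, 12.3 at 12 h, 17.4 at 24 h, 17.6 at 36 h, 30.9 at 48 h, 19.2 at 60 h, 17.4 at 72 h, 22.8 at 84 h and 17.4 at 96 h, and in SCRB-seq it went from 19.6 CPM at 0 h to 40.96 at 6 h, 106.2 at 48 h, 105.9 at 72 h and 35.96 at 96 h. Its log2 fold change was 1.02 ± 0.40 at 6 h and did not pass the test there (adjusted p = 0.358). It passed at 24 h (1.40 ± 0.40, adjusted p = 0.032), 48 h (1.86 ± 0.39, adjusted p = 0.00165), 60 h (1.35 ± 0.40, adjusted p = 0.0189) and 72 h (1.41 ± 0.40, adjusted p = 0.0138). The calls at 24 h, 60 h and 72 h were lost without the SCRB-seq sample of 0 h or of the time point itself.

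Spry2 and Etv5 took the opposite direction. From 24 h on Etv5 passed the test as lower than in 2i at every time point tested, and Spry2 at all but 36 h. Spry2 (chr14:105891947-105896819, minus strand), the most studied Sprouty, was at 54.7 and 32.7 CPM in the mESC libraries, at 25.9 at 6 h, 27.7 at 12 h, 10.5 at 24 h, 18.1 at 36 h, 14.2 at 48 h, 9.01 at 60 h, 13.1 at 72 h, 10.9 at 84 h and 13.8 at 96 h. All later bulk libraries lay below both mESC libraries, while SCRB-seq sums of 42.6 CPM at 12 h and 39.3 at 36 h lay next to the 40.99 of 0 h. On the log2 scale Spry2 fell by 2.07 ± 0.42 at 24 h (adjusted p = 0.00271), 1.54 ± 0.40 at 48 h (adjusted p = 0.00989), 2.26 ± 0.43 at 60 h (adjusted p = 0.000462), 1.99 ± 0.42 at 72 h (adjusted p = 0.00125) and 1.48 ± 0.41 at 96 h (adjusted p = 0.0116), and at 6 h, 12 h and 36 h it did not pass the test. The call at 24 h was lost without the SCRB-seq sample of 24 h, and that at 48 h without either library of 48 h. The call at 96 h was lost without the first mESC library, without the bulk library of 96 h and with scaling by library totals alone.

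Etv5 (chr16:22381309-22439719, minus strand), the relative of Etv4, moved apart from it. It was at 55.6 and 73.1 CPM in mESCs and at 49.4 at 6 h, 37.4 at 12 h, 28.4 at 24 h, 17.6 at 36 h, 15.4 at 48 h, 9.01 at 60 h, 5.99 at 72 h, 6.22 at 84 h and 7.69 at 96 h. SCRB-seq sums ran from 247.7 CPM at 0 h through 199.4 at 6 h, 149.8 at 12 h and 71.3 at 24 h to 7.49 at 96 h. Its log2 fold change was -0.25 ± 0.32 at 6 h, -0.67 ± 0.33 at 12 h, -1.47 ± 0.35 at 24 h (adjusted p = 0.00783), -2.53 ± 0.37 at 48 h (adjusted p = 2.37e-05) and -4.14 ± 0.44 at 96 h (adjusted p = 1.18e-07). From 24 h on every time point passed the test, and at 24 h and 36 h this needed the SCRB-seq sample of 24 h and the bulk library of 36 h.

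**Figure D2:**
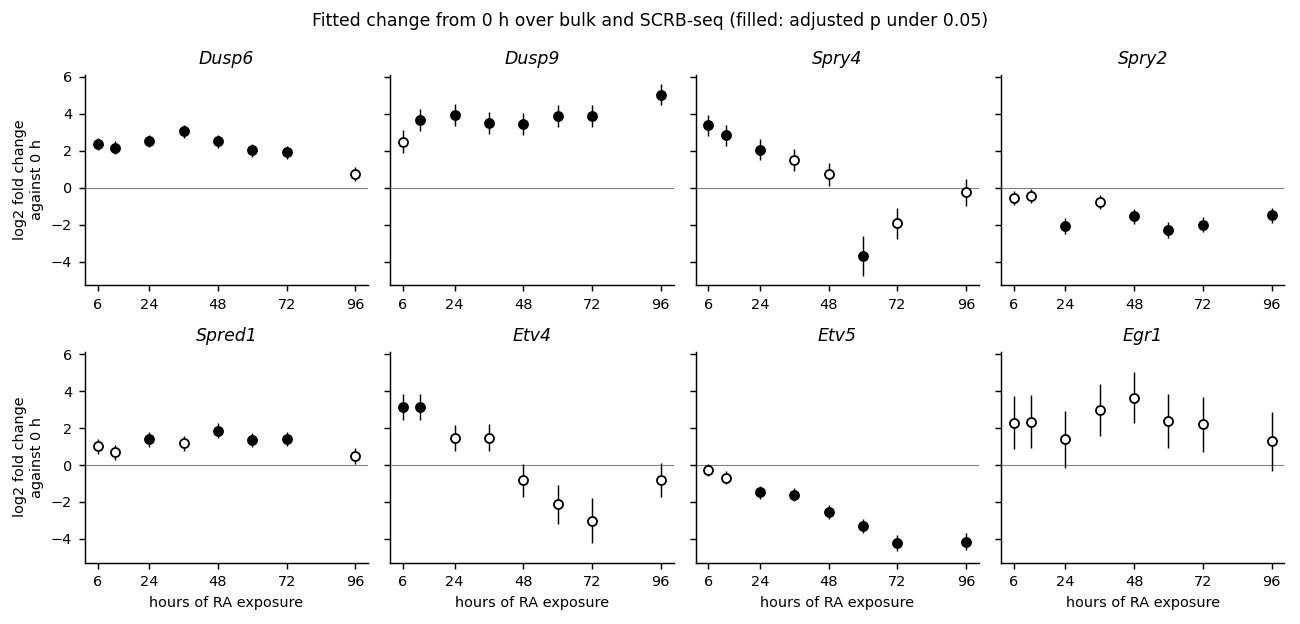
Log2 fold change against 0 h (points) with its standard error (bars) from the edgeR fit over bulk and SCRB-seq, against hours of RA exposure, for 8 of the 9 members tested. Filled points have an adjusted p under 0.05. Dusp6 and Dusp9 stayed above 0, Spry4 and Etv4 started high and crossed 0, and Spry2 and Etv5 were below 0 throughout.

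Among the remaining members, Dusp4 (chr8:34807297-34819894, plus strand), a nuclear phosphatase of ERK and other MAP kinases, had 0 UMIs in all 3 samples of 0 h. Bulk libraries held 6 UMIs at 6 h, 3 at 12 h and 24 h, 13 at 48 h and 5 at 96 h, and SCRB-seq sums 8 at 6 h, 0 at 24 h, 12 at 36 h and 60 h, 0 at 72 h and 17 at 96 h. With 3 UMIs over the 0 h libraries of the method, it was at least 8.07-fold higher at 48 h in bulk and at least 14.7-fold higher at 96 h in SCRB-seq. These folds take the later count without its counting error, which was wide (2.81 to 9.04 CPM in bulk at 48 h). It passed the test at 36 h (adjusted p = 0.0345), 48 h (adjusted p = 0.0167), 60 h (adjusted p = 0.0198) and 96 h (adjusted p = 0.00375), and each of these calls was lost without at least 1 library. Spry1 (chr3:37639947-37644598, plus strand), another Sprouty, had at most 7 UMIs in each bulk library and at most 14 in each SCRB-seq sum of the time course, too few to show a change at this depth.

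Egr1 (chr18:34859823-34864984, plus strand), the immediate early gene of the set, did not pass the test at any time point, with the lowest adjusted p of 0.0808 at 48 h. Bulk libraries of the time course held 0 to 13 UMIs, with the highest value of 5.73 CPM at 12 h. SCRB-seq sums held 0 UMIs at 0 h, 12 at 6 h, 1 at 12 h, 5 at 24 h, 31 at 36 h, 50 at 48 h, 23 at 60 h, 18 at 72 h and 0 at 96 h. The methods went apart here, since bulk libraries of 36 h to 72 h held 5 UMIs or fewer. Atf3 was listed here both as a gene of stress and cell dissociation and as an ERK-induced gene. It was at 29.02 CPM in the SCRB-seq sum of 48 h against 0.693 at 24 h, and at 18.3 CPM in bulk at 48 h. Of the 6 stress and dissociation genes, 2 (Atf3 and Hspa1a) rose and 1 (Hsp90aa1) fell at 48 h by the same test, and the part of handling in the Egr1 values was not tested.

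From 24 h on some members were above and others below their 2i level. At 36 h Dusp4, Dusp6 and Dusp9 rose (4.67% of all genes did) and Etv5 fell (4.3% of all genes did). At 48 h Spred1 joined the 3 phosphatases that rose (7.9% of all genes rose), and Spry2 joined Etv5 (6.64% of all genes fell). At 60 h the same 4 rose (8.33% of all genes) and Spry2, Etv5 and, by the call that DESeq2 did not make, Spry4 fell (8.19% of all genes). At 72 h 3 rose (9.57% of all genes) and 2 fell (9.61% of all genes), and at 96 h Dusp4 and Dusp9 rose (9.81% of all genes) and Spry2 and Etv5 fell (9.76% of all genes). Without the bulk library of 36 h, 2 in place of 4 members passed at 36 h, and without the SCRB-seq sample of 60 h, 4 in place of 7 passed at 60 h.

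The 250 bases before the RefSeq start of 3 members are shown for reference: Dusp6, which was up from 6 h on, Spred1, which first passed the test at 24 h, and Spry2, which fell. They are given in the orientation of the gene, from GRCm38.p6, at chr10:99262981-99263230, chr2:117120821-117121070 and chr14:105896820-105897069, and capitals mark GGAAG or its reverse complement CTTCC, the core of ETS sites.
Dusp6: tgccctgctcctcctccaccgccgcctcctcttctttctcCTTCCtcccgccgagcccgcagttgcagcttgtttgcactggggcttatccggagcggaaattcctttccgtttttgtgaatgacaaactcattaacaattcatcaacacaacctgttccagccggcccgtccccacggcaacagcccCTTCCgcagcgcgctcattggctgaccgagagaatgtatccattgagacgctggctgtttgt
Spred1: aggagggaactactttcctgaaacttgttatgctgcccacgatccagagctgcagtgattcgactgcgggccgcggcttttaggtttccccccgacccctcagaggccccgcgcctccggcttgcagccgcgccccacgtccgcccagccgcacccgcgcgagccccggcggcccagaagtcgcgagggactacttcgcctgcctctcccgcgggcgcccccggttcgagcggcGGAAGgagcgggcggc
Spry2: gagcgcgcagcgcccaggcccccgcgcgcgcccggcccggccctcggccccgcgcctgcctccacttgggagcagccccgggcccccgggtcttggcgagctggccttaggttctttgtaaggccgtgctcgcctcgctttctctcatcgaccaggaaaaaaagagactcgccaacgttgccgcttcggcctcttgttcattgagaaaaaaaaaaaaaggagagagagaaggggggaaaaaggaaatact
Dusp6 held GGAAG on the minus strand at 2 places, Spred1 held it at 1, and Spry2 held none. Of the other members with an entry, Spry1 held none, and Etv5, which fell, held 2 in one of its 2 windows and none in the other. Spry4, Etv4, Dusp4, Dusp9 and Egr1 had no window used here. Whether these letters go with the direction of change was not tested. On both strands together, 64.1% of the 32851 RefSeq promoter windows of this length hold these letters, so their presence singles out no gene. The longer ETS site CCGGAAGT is in 2.88% of all windows, the CRE site TGACGTCA in 1.55% and the EGR site GCGTGGGCG in 0.536%, and none of these 6 windows holds any of them. Matches are to letters only, and absence from these windows says nothing of sites elsewhere.

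The share of cells in which a member was detected was read from single cells. In SCRB-seq cells thinned to 2000 UMIs each, Dusp6 was seen in 1.42% of 282 cells at 0 h (exact 95% binomial interval 0.388 to 3.59) and in 11.9% of 335 cells at 6 h (8.67 to 15.9), and at 36 h in 15.6% of 334 cells. Etv4 was seen in 0 of 282 cells at 0 h, which allows a share of up to 1.06% of cells with a UMI at this depth, in 9.85% at 6 h (6.88 to 13.6), 4.91% at 12 h and 1.03% at 24 h. Dusp9 was seen in 0 of 282 cells at 0 h as well, in 4.48% at 6 h (2.53 to 7.28), 11.9% at 12 h, 13.1% at 24 h and 27.01% of 137 cells at 96 h (19.8 to 35.3). All 3 were thus detected in more cells at 6 h than at 0 h. The highest share was at 6 h for Etv4, at 36 h for Dusp6 and at 96 h for Dusp9. These shares count cells with a UMI at this depth, not cells that express a gene. SMART-seq2 had Etv4 above 1 in 59.8% and Dusp9 in 56.1% of cells at 0 h. Etv5 was seen in 28.4% of cells at 0 h, 30.1% at 6 h, 28.4% at 12 h, 11.03% at 24 h and 2.19% at 96 h, and the share at 6 h lay within the interval of 0 h (23.18 to 34.02). Shares for Spry2 lay between 2.13% and 7.37% at all time points. At 96 h the share of 6.57% (3.05 to 12.1) was not below the 4.97% of 0 h (2.74 to 8.19). Intervals cover counting error only, and each time point is 1 plate, so that no test between time points was run on cells.

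SMART-seq2, which reads whole transcripts at greater depth per cell, covered 82 cells at 0 h, 86 at 12 h, 89 at 24 h and 82 at 48 h. Values are RPKM, set to 1 common total for all cells, the median of the cells at 0 h. The mean of Dusp6 was 19.003 ± 23.3 (SD over cells) at 0 h, 66.2 ± 80.3 at 12 h, 95.7 ± 111.6 at 24 h and 114.8 ± 129.9 at 48 h, and the share of cells above 1 went from 60.98% (49.6 to 71.6) to 89.5% at 12 h (81.1 to 95.1), 82.02% at 24 h and 79.3% at 48 h. The share was thus highest at 12 h while the mean was highest at 48 h. Etv4 went from a mean of 20.8 at 0 h to 51.6 at 12 h, 33.8 at 24 h and 14.6 at 48 h, with 59.8%, 93.0%, 85.4% and 43.9% of cells above 1. Spry4 was above 1 in 32.9% of cells at 0 h (22.9 to 44.2), 72.1% at 12 h (61.4 to 81.2), 56.2% at 24 h and 19.5% at 48 h (11.6 to 29.7). The mean of Spry4 moved less, from 17.05 at 0 h to 24.8 at 12 h, 17.2 at 24 h and 6.68 at 48 h. On the log2 scale, with 1 added, this mean changed by 0.52 at 12 h and 0.01 at 24 h. The fit of bulk and SCRB-seq gave larger rises of 2.84 and 2.07.

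Egr1 gave the largest change in share among the 10 genes in SMART-seq2 between 0 h and 12 h. No cell of 82 was above 1 at 0 h (which allows a share of up to 3.66%), against 62.8% of 86 cells at 12 h (51.7 to 72.98), 41.6% at 24 h and 36.6% at 48 h. The mean was 27.6 ± 38.02 at 12 h, 14.3 ± 23.7 at 24 h and 16.5 ± 31.8 at 48 h. In bulk the same gene had 13 UMIs at 12 h and in SCRB-seq 1 UMI, and the course of this gene differed between the methods.

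Etv5 and Spry2 were above 1 in all 82 cells at 0 h. Etv5 had a mean of 132.2 ± 61.5 at 0 h, 84.7 ± 51.96 at 12 h, 71.6 ± 48.1 at 24 h and 34.9 ± 42.5 at 48 h, and was above 1 in 69.5% of cells at 48 h (58.4 to 79.2). Spry2 had a median of 245.9 at 0 h, 172.0 at 12 h, 86.7 at 24 h and 67.1 at 48 h and stayed above 1 in 91.5% of cells at 48 h (83.2 to 96.5). Its quartiles were 177.4 and 323.6 at 0 h, 43.2 and 172.5 at 24 h and 29.5 and 121.8 at 48 h. Dusp9 was above 1 in 56.1% of cells at 0 h, 88.4% at 12 h, 94.4% at 24 h and 76.8% at 48 h, Dusp4 in 4.88%, 19.8%, 21.3% and 37.8%, and Spred1 in 41.5%, 60.5%, 70.8% and 64.6%. The mean of Dusp9 was 20.7 at 0 h, 31.1 at 12 h, 37.6 at 24 h and 29.8 at 48 h. On the log2 scale, with 1 added, it changed by 0.56, 0.83 and 0.50. The fit of bulk and SCRB-seq gave larger rises of 3.65, 3.95 and 3.46 at these times. Spry1 was above 1 in 18.6% to 32.6% of cells.

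**Figure D3:**
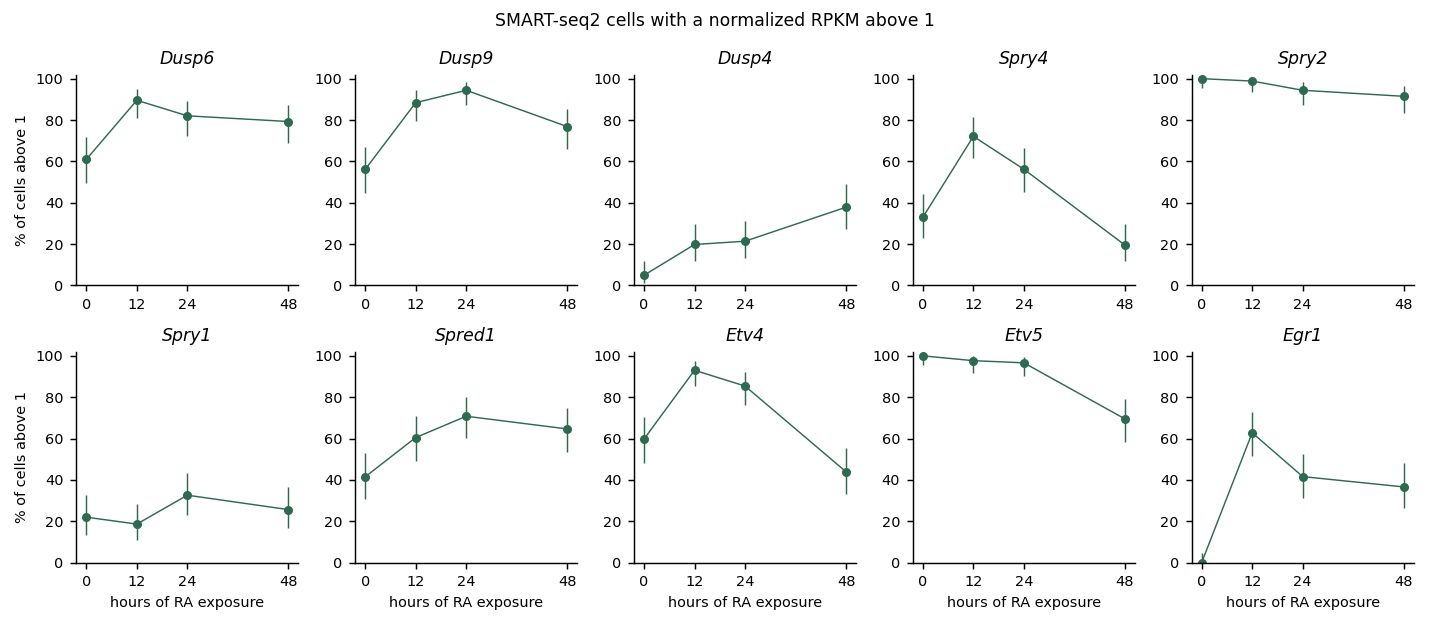
Percent of SMART-seq2 cells with a scaled RPKM above 1 (vertical axis, from 0) against hours of RA exposure for the 10 genes, with exact 95% binomial intervals over 82 to 89 cells per time point. Egr1 went from 0% to 62.8% at 12 h, Spry4 and Etv4 peaked at 12 h, and Etv5 left 100% only at later time points.

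Over the 45 pairs of members, the median Spearman correlation across cells was 0.061 at 0 h, 0.059 at 12 h, 0.114 at 24 h and 0.118 at 48 h. The highest were Spry2 with Dusp6 at 24 h (0.443) and Dusp6 with Spred1 (0.396) and with Dusp9 (0.357) at 12 h. These are given as a description over 82 to 89 cells per time point, whose read depths are not known here. In sparse values such weak correlations are no finding.

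At 96 h Dusp6 and Dusp9 differed between the lineages in opposite directions. Dusp4, the other phosphatase, was too low in the sorted libraries to be tested. Only 5 members passed the filter on low values in the sorted libraries (Dusp6, Dusp9, Spred1, Spry2 and Etv5), and 3 of them differed between sorted XEN-like and sorted ectoderm-like cells: Dusp9 was higher in XEN-like cells (6.97% of the 8932 genes tested were), and Dusp6 and Spred1 were lower (5.79% of all genes were, 12.8% in both directions). The test was edgeR's quasi-likelihood test over the 2 mESC, 2 ectoderm-like and 2 XEN-like libraries, adjusted over all genes.

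Dusp6 was at 68.4 and 36.8 CPM in the ectoderm-like libraries (123 and 57 UMIs) and at 2.54 and 6.38 CPM in the XEN-like libraries (5 and 7 UMIs), with 18.4 and 7.40 CPM in mESCs. The values of the groups did not overlap, and ectoderm-like cells lay above and XEN-like cells below mESCs. The counting intervals of the second XEN-like library (2.57 to 13.1) and the second mESC library (4.31 to 11.8) overlapped. The log2 fold change was 1.72 ± 0.47 for ectoderm-like cells against mESCs (adjusted p = 0.0252), -1.85 ± 0.63 for XEN-like cells against mESCs (adjusted p = 0.0538) and -3.57 ± 0.59 between XEN-like and ectoderm-like cells, XEN-like being lower (adjusted p = 0.00317), an 11.9-fold higher level in the ectoderm-like cells. Spred1 went the same way, with 28.3 and 27.1 CPM in ectoderm-like, 5.08 and 4.56 in XEN-like and 8.31 and 9.58 in mESC libraries. It differed by 2.41 ± 0.42 on the log2 scale between the lineages (adjusted p = 0.00417).

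Dusp9 went the other way. XEN-like libraries held 191.5 and 118.5 CPM (377 and 130 UMIs), ectoderm-like libraries 13.9 and 20.7 CPM (25 and 32 UMIs) and mESCs 6.12 and 1.31 CPM. It was thus above mESCs in both lineages, by 5.15 ± 0.52 on the log2 scale in XEN-like (adjusted p = 8.74e-05) and by 1.90 ± 0.55 in ectoderm-like cells (adjusted p = 0.0312), and 9.52-fold higher in XEN-like than in ectoderm-like cells (log2 3.25 ± 0.45, adjusted p = 0.0015). The call in ectoderm-like cells was lost without either ectoderm-like library or the second mESC library. The second ectoderm-like library, at 20.7 CPM, also held more of the XEN markers (1781 against 486.0 CPM in the first). Their part in the Dusp9 values was not tested.

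Spry2 and Etv5 were low in both lineages. Spry2 was at 10.6 and 10.3 CPM in ectoderm-like and at 11.2 and 9.12 CPM in XEN-like libraries, against 54.7 and 32.7 in mESCs. On the log2 scale it fell by 2.36 ± 0.37 in ectoderm-like cells (adjusted p = 0.00115) and by 2.29 ± 0.38 in XEN-like cells (adjusted p = 0.00123), and the 2 lineages differed by 0.06 ± 0.42 (adjusted p = 0.943), within the spread between libraries. Etv5 had 6 and 4 UMIs in the ectoderm-like libraries and 4 and 1 UMIs in the XEN-like ones, a fall on the log2 scale by 4.72 ± 0.43 and 5.50 ± 0.48 from mESCs (adjusted p = 3.4e-05 and 3.63e-05), and its difference between the lineages, -0.78 ± 0.67, did not pass the test (adjusted p = 0.541). Against mESCs, 3 members were higher and 2 lower in ectoderm-like cells (9.85% and 9.28% of all genes, 19.1% together), and 1 was higher and 2 lower in XEN-like cells (12.3% and 10.5%, 22.8% together). Without either ectoderm-like library or the second mESC library the number called in ectoderm-like cells was 2 or 3 in place of 5, without the first mESC library it was 4, and Spry2 and Etv5 were called in all of these fits. Without the second mESC library 5 members were called in XEN-like cells, Dusp6 among them.

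**Figure D4:**
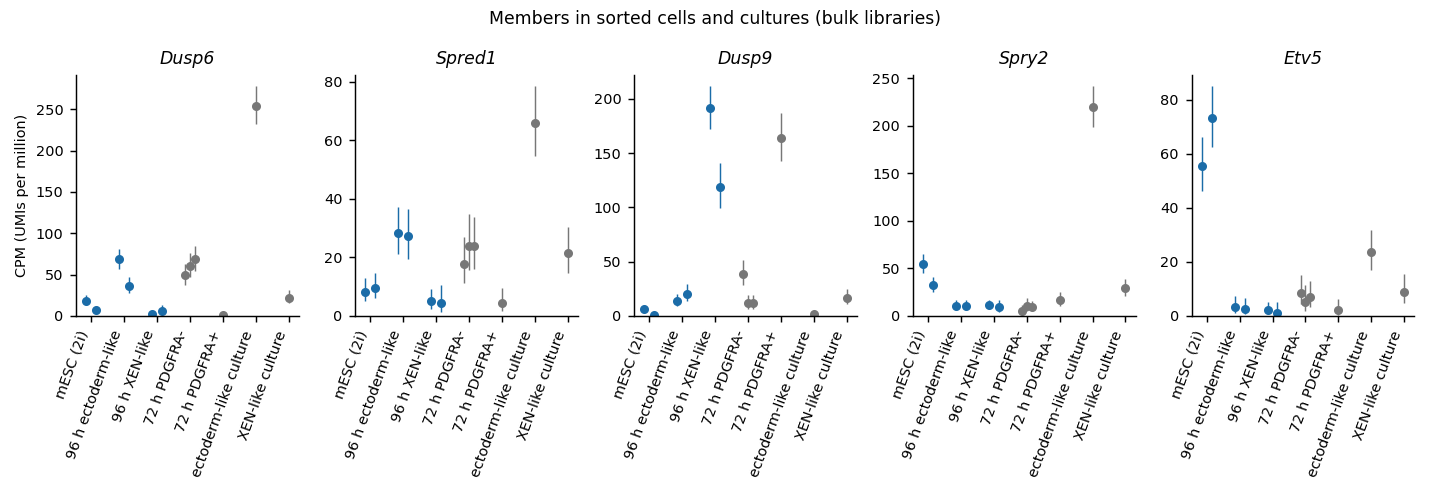
CPM (vertical axes, from 0) of 5 members in bulk libraries, 1 point per library with its 95% Poisson interval. The blue points are the libraries of the tested groups (mESCs and the cells sorted at 96 h) and the grey points are conditions without a test (cells sorted at 72 h and long-term cultures). Dusp9 was at 118.5 to 191.5 CPM in PDGFRA-positive cells of 72 h and XEN-like cells of 96 h, and Dusp6 was at most 6.38 CPM there.

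Other genes of the pathway were taken from lists of receptors and kinases, further negative feedback genes, ERK-induced genes and FGF ligands. At 6 h Phlda1, an ERK-induced gene, was the only 1 of 43 listed genes tested that rose (log2 fold change 2.92 ± 0.55, adjusted p = 0.00837), and none fell. At 12 h Phlda1 (2.61 ± 0.56) and Myc (2.50 ± 0.64) rose and Klf10 fell by 1.51 ± 0.40 (adjusted p = 0.0107, 0.0325 and 0.0439). At 24 h none of the 43 passed the test. Over all genes 0.638% passed at 6 h, 2.45% at 12 h and 6.7% at 24 h. Whether the small counts of listed genes differ from these shares was not tested. The genes named for 6 h and 12 h were picked after their values were seen. None of the 17 genes of the cascade from receptor to kinase and none of the 11 further feedback genes tested passed up to 24 h, with median log2 fold changes of 0.11, 0.03 and 0.30 for the cascade and -0.03, -0.07 and 0.03 for the feedback genes at 6 h, 12 h and 24 h, against 0.01, 0.01 and 0.00 over all genes.

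Between the sorted lineages, Fgfr1, a receptor of FGF ligands, had a log2 difference of -3.99 ± 0.71 and was thus lower in XEN-like cells (adjusted p = 0.0045). Gab1, an adaptor of receptor kinases, was higher in XEN-like cells by 2.02 ± 0.35 (adjusted p = 0.00413). These were the 2 of 17 cascade genes that passed, a share near the 12.8% of all genes called in this comparison. The same 12.8% is the background for the next counts. Of 13 ERK-induced genes, Ccnd1 (cyclin D1), Myc and Ier2 were lower in XEN-like cells by log2 differences of -4.36 ± 0.43, -2.17 ± 0.56 and -1.87 ± 0.50 (adjusted p = 0.000506, 0.026 and 0.0294). Of 7 further feedback genes, Errfi1, an inhibitor of EGF receptors, was lower (-2.41 ± 0.54, adjusted p = 0.0143). Fgf15 was the FGF ligand that differed, with 47.3 and 84.1 CPM in ectoderm-like and 0 and 0.913 CPM in XEN-like libraries.

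The same split between Dusp9 and Dusp6 was seen in cells sorted at 72 h. In PDGFRA-positive cells of 72 h, Dusp9 stood at 163.9 CPM (143.1 to 186.9) and Dusp6 at 0.735 CPM (1 UMI, 0.0186 to 4.10). The PDGFRA-negative terciles of the same day, from low to high CD24, held 48.9, 59.99 and 68.3 CPM of Dusp6, 38.8, 11.5 and 11.5 CPM of Dusp9 and 17.9, 23.8 and 23.8 CPM of Spred1, against 4.41 CPM of Spred1 in PDGFRA-positive cells. The tercile with the least CD24 had more Dusp9 than the others beyond counting error (28.8 to 51.2 against 6.11 to 19.6 and 6.44 to 18.99), and it also had the highest summed level of the XEN markers of the 3, at 798.4 CPM against 473.5 and 356.6, whose part in the Dusp9 values was not tested. At 48 h the 4 CD24 quartiles of PDGFRA-negative cells held 111.02, 112.8, 127.8 and 118.1 CPM of Dusp6, 22.7, 22.1, 11.3 and 14.5 of Dusp9, 19.4, 22.1, 20.7 and 29.7 of Spred1 and between 14.1 and 16.4 of Spry2. Each of these conditions is 1 library, so they have no replicate check.

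SCRB-seq cells of 96 h were put into 2 clusters by 829 variable genes, none of them a member. In the cluster of 63 cells called XEN-like all 11 XEN markers were higher, and in the cluster of 74 cells called ectoderm-like all 11 ectoderm markers were higher. The split was not clean, since XEN markers were also found in the ectoderm-like cluster. In XEN-like against ectoderm-like cells, Sparc was at 48.9 against 20.3 UMIs per 10000 (ratio 2.41). Dab2 was at 5.71 against 2.82 (ratio 2.02) and Gata4 at 1.32 against 0.381 (ratio 3.47). Some differences were smaller still. Pdgfra had 69 UMIs in the XEN-like cluster against 59 in the other (ratio per UMI 1.38, 0.963 to 1.99). Pax6 had 4 and 6 UMIs. With clustering on log2 values, which gave 75 XEN-like and 62 ectoderm-like cells, Pdgfra had 117 and 11 UMIs. Dusp9 had 3.69 UMIs per 10000 in XEN-like (95% Poisson interval 3.07 to 4.41) and 1.02 in ectoderm-like cells (0.726 to 1.38). Dusp6 had 1 UMI in XEN-like cells (0.03 per 10000, 0.0008 to 0.167) and 19 in ectoderm-like cells (0.483 per 10000, 0.29 to 0.754), a ratio of 16.1 for ectoderm-like over XEN-like with a wide counting interval of 2.55 to 668. This ratio was 5.22 (1.80 to 18.4) when cells were clustered on log2 values and 8.67 (1.30 to 368.5) in wells above 4000 UMIs. Spred1 had 5 and 19 UMIs, a ratio of 3.21 for ectoderm-like over XEN-like (1.16 to 11.01). It was 1.47 (0.597 to 3.56) with log2 clustering and 1.67 (0.481 to 7.28) in wells above 4000 UMIs. Spry2 had 13 and 10 UMIs and Dusp4 11 and 6 in the same order of clusters. For Dusp9 the ratio of XEN-like over ectoderm-like cells was 3.64 (2.53 to 5.33), 4.94 and 3.57 in these 3 settings. The intervals of Spry2 and Dusp4 overlapped.

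Cells of earlier times were classed by their closest average profile, again without the members. The XEN-like and ectoderm-like profiles were the means of the 96 h clusters of 63 and 74 cells. Pdgfra differed little between these clusters, and other XEN markers were found in both. The earlier classes were not made again from the clusters on log2 values. At 72 h 25 cells were XEN-like and 186 ectoderm-like, and Dusp9 was at 2.99 against 0.504 UMIs per 10000, a 5.92-fold difference (3.65 to 9.43), while Dusp6 had 2 UMIs in the former and 88 in the latter. At 60 h only 10 cells were XEN-like, with 13 UMIs of Dusp9 and none of Dusp6, against 99 and 87 in 165 ectoderm-like cells, and at 48 h 4 cells were. The numbers of cells within 0.02 of a second profile in correlation were 74 at 60 h, 31 at 72 h and 4 at 96 h. In SMART-seq2 at 48 h, 10 of 82 cells had Pdgfra above 5. Gata6 was above 1 in 1 of these 10 cells and in 13 of the other 72, and Cd24a in 8 and 55. Medians were 36.6 and 73.7 for Cd24a and 81.6 and 52.8 for Sparc. The markers were thus mixed, and these 10 cells were not shown to be XEN-like beyond Pdgfra. The Dusp6 of the 10 cells ran from 0.597 to 140.3 with a median of 43.04. That of the other 72 cells ran from 0 to 533.3 with a median of 91.5, so the ranges overlapped. The medians of Dusp9 were 25.97 and 14.7. These classes are within 1 plate each and were not tested.

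**Figure D5:**
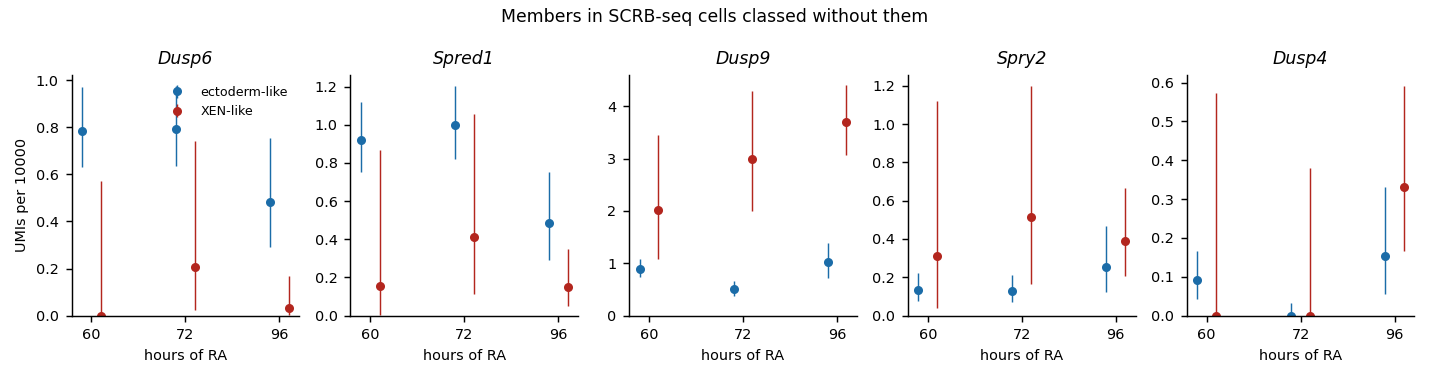
UMIs per 10000 (vertical axes, from 0) of 5 members in SCRB-seq cells classed as ectoderm-like (blue) and XEN-like (red) at 60 h, 72 h and 96 h, with 95% Poisson intervals. Dusp9 was higher in XEN-like cells and Dusp6 higher in ectoderm-like cells, and the intervals of Spry2 and Dusp4 overlapped at 96 h.

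Of the long-term cultures, both grown with EGF and FGF2, the ectoderm-like one held the highest level of 7 members among all bulk libraries, and the XEN-like one that of none. In the ectoderm-like culture Dusp6 stood at 254.3 CPM (231.9 to 278.2), Spry2 at 219.5 (198.8 to 241.8), Spry4 at 106.5 (92.2 to 122.4), Spred1 at 65.8 (54.7 to 78.6), Egr1 at 41.8 (33.01 to 52.1), Spry1 at 31.1 (23.6 to 40.1), Etv4 at 29.4, Etv5 at 23.6 and Dusp4 at 13.4 CPM. The 7 were Spry1, Spry2, Spry4, Spred1, Dusp4, Dusp6 and Egr1, and the order is over 25 libraries. The share of all genes with their highest level in this culture was not counted, so the 7 are not read as a trait of this set. Dusp9 was the exception among the phosphatases, with 1.61 CPM (3 UMIs, 0.331 to 4.69), against 13.9 and 20.7 in freshly sorted ectoderm-like cells. In the XEN-like culture Dusp9 was at 16.6 CPM (10.6 to 24.6), against 191.5 and 118.5 in sorted XEN-like cells, while Dusp6 was at 22.1 (15.1 to 31.2), Egr1 at 28.3 (20.3 to 38.4), Spry2 at 28.97 and Spred1 at 21.4 CPM. Each culture is 1 library and they differ in passage, time and added factors from the sorted cells, which cannot be told apart.

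Over the 11 bulk libraries of the time course, the 3 genes whose log2(CPM + 1) ran closest to a member were taken among 5379 genes with at least 50 UMIs in 1 library. For Etv5 they were Gm6083, Dppa5a and Gsta4 (Pearson r 0.987, 0.985 and 0.98) and for Etv4 Utf1, Cox17 and Noc3l (0.968, 0.941 and 0.939). For Dusp6 they were Fam60a, Naa38 and Folr1 (0.954, 0.952 and 0.936), for Dusp9 Eif4h, Rgs19 and Tmem167 (0.97, 0.968 and 0.968), for Spry4 Slc25a5, Nfyb and G3bp2 (0.935, 0.93 and 0.93) and for Spry2 Zfp97, Ube2l6 and Rpl38 (0.939, 0.937 and 0.934). These are the highest of many values over libraries that share a time course, and no member was among the 3 genes closest to another.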

How the data were processed

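The bulk and SCRB-seq values are UMI counts per gene, which the authors made by alignment to mouse RefSeq mRNAs with BWA 0.7.4, with each UMI counted once per gene, and deposited without normalization. The SMART-seq2 values were deposited as RPKM, made by the authors with TopHat and Cuffnorm on mm10, so read depth can no longer be seen in them. Among the bulk counts 3 values of 2 genes were text, and these genes were left out. Decimal commas in 0.127% to 0.14% of the SMART-seq2 values were read as decimal points.

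Only wells above 2000 UMIs entered, and SCRB-seq counts were summed per time point. Fits used the quasi-likelihood test of edgeR 4.0.16 under R 4.3.3 (scaling by TMM, default low-count filter, Benjamini-Hochberg adjustment over all genes tested, threshold 0.05). The time course fit held 19 libraries with method and time as terms, and the fit of sorted cells 6 libraries. Bulk 84 h, the other sorts and the cultures have 1 library each and were not tested. On simulated data 79% and 72.5% of 200 genes changed 4-fold were recovered for 24 h and for the sorted lineages. Intervals for counts are exact Poisson and those for shares exact binomial, at 95%, and cover counting error only. The floor is 3 UMIs over the 0 h libraries of a method, and folds given as at least take the later count without its counting error.

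Cells of 96 h were clustered by k-means with scikit-learn 1.9.0 on variable genes. All 384 SCRB-seq well names occur on every plate, with 0 identical wells. Alternatives were DESeq2 1.42.0, other scaling, other filters and leaving out each library. The members and lists were chosen with earlier results of these data known. All 10 members are named, and of other pathway genes those past the threshold with the largest change at 24 h and between the sorted lineages, up to 4 per list. Of the members, 5 matched a RefSeq promoter entry that was used here. The genes closest in course to Spred1 are not reported here.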

Additional observations from a re-analysis of the deposited data

Results flagged for a closer look

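The change of 3 members against mESCs differed between the sorted XEN-like and the sorted ectoderm-like cells by edgeR's test of the difference itself. For Dusp6 the log2 difference was -3.57 (adjusted p = 0.00317), with the ectoderm-like libraries above both mESC libraries. The XEN-like libraries lay below both, but XEN-like cells against mESCs did not pass the test (adjusted p = 0.0538). For Dusp9 the log2 difference was 3.25 (adjusted p = 0.0015), with both lineages above mESCs. The call of Dusp9 in ectoderm-like cells against mESCs was lost without either ectoderm-like library or the second mESC library. For Spred1 the log2 difference was -2.41 (adjusted p = 0.00417). Each difference between the lineages held in all 12 alternatives run, within -4.33 to -2.77 for Dusp6, 2.97 to 3.68 for Dusp9 and -2.50 to -2.32 for Spred1. No group of the study had 4 or more libraries, so single libraries could not be tested for standing apart from their group.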

How the results depend on the processing

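Without the filter on low counts, the members called numbered 5 in place of 3 at 6 h, 8 in place of 5 in ectoderm-like cells against mESCs and 5 in place of 3 in XEN-like cells against mESCs. Leaving out 1 library gave 1 to 4 members called at 6 h, 2 to 4 at 12 h, 2 to 7 at 24 h, 2 to 5 at 36 h and 4 to 7 at 60 h, 2 to 5 for ectoderm-like cells and 3 to 5 for XEN-like cells against mESCs. Of the members gained without the filter, Dusp4 and Dusp9 at 6 h and Dusp6 in XEN-like cells had been tested with it too, and the cause was not tested. No alternative turned the direction of a called value. Over all genes, 77 were called at 6 h, against 138 by DESeq2 and 257 without the filter, and 296 at 12 h, against 537 without the filter. The shares of all genes called are not given here for the sorted runs without the filter or the runs that left out 1 library. The member counts of those runs thus have no background beside them.

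Scaling by library totals alone put the median log2 change of all genes at 0.17 at 48 h, 0.27 at 60 h, 0.31 at 72 h, 0.33 at 96 h, 0.36 for the ectoderm-like and 0.15 for the XEN-like sort, against 0.01, 0.03, 0.03, -0.03, 0.05 and -0.06. At 96 h 1942 genes then rose and 777 fell, in place of 1185 and 1178, Dusp6 was called and Spry2 was not. At 48 h 1248 rose and 610 fell in place of 954 and 802, at 60 h 1527 and 748 in place of 1006 and 989, and at 72 h 1758 and 797 in place of 1156 and 1161. Ectoderm-like cells then had 1366 genes higher and 585 lower in place of 880 and 829, and XEN-like cells 1334 and 700 in place of 1099 and 938.

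With the replicate number as a block, 3 members and 2611 of 8155 genes were called between the sorted lineages, against 3 members and 1140 of 8932 genes without it. The deviations of same-numbered libraries correlated at 0.327, but with only 2 pairs and no label that ties them the numbers were not taken as a pairing.

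Low counts limit Dusp4, Spry1 and Egr1, and each time point outside 0 h has 1 library per method.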
